A study of Rattus norvegicus with 2 samples.

Results

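The genes described here are 41 genes of glycolysis and the hypoxia response, chosen by symbol from a table of 32662 rat genes, of which 40 have a row under their symbol. They comprise 18 glycolytic enzymes, 9 other targets of the hypoxia-inducible factors (HIFs), HIF subunits and the prolyl hydroxylases that control them, transporters, and regulators of glycolytic flux. The libraries come from retinas of Long-Evans rats aged 2 months. CTRL is the control library, from a sham-operated retina, and IR12 is from an ischemic retina taken 12 hours after reperfusion. Each condition has 1 rRNA-depleted RNA-seq library, so no difference below has a replicate check and no p-value is given. Levels are FPKM, which scales fragments to transcript length and to the mapped fragments of a library, as deposited. Read counts per gene are not given by FPKM, but the lowest values move in steps, and at 16 of 19 locus lengths a step was worth 1.71 times as much in CTRL as in IR12. Rod genes were abundant in both libraries, with 4027 FPKM in CTRL and 4237 in IR12 for the transducin gene *Gnat1* and 2482 and 4703 for the arrestin gene *Sag*. Lower in IR12 as deposited, but higher on the TPM scale, were the rod genes *Pde6b*, with 891 and 718, and *Nrl*, with 54.1 and 39.4.

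HIFs are transcription factors made of an oxygen-sensitive alpha subunit and a stable partner. With oxygen present, prolyl hydroxylases mark the alpha subunit for destruction, and in hypoxia it accumulates and raises the transcription of genes for glucose uptake, glycolysis, angiogenesis and mitophagy. The retina is known for high aerobic glycolysis, much of it in photoreceptors, with lactate exchanged between photoreceptors and Müller glia.

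Of the 40 genes in the table, 34 had an FPKM of at least 1 in either library, and all 34 also reached it in both. Differences are log2 ratios of (FPKM + 1), IR12 over CTRL, and the added 1 shrinks the ratios of genes with low FPKM. Only *Bnip3* and *Hk2*, 2 of the 34, were at least 2-fold lower in IR12, against 6.12% of the 13599 genes tested, so the share of 5.88% is near the background. None of the 34 was at least 2-fold higher, against 6.56% of all genes. At a limit of 1.5-fold, 14 of the 34 (41.2%) were lower, against 13.7% of all genes, and 0 were higher, against 14.8%. In all, 26 of the 34 were lower by any amount, against 48.2% of all genes. Of the 34, 9 lay in the lowest 10% of log2 ratios, a limit that 9.99% of all genes met.

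These counts depend on how the libraries are scaled. Small non-coding RNAs hold 68.0% of the summed FPKM in CTRL and 46.3% in IR12, so rescaling both libraries to the same sum (TPM scale) adds 0.65 to the log2 ratio of every gene before the pseudocount. On that scale the median log2 ratio of all tested genes was 0.59, compared with 0.02 as deposited, and 2817 genes were at least 2-fold higher and 436 lower, compared with 892 and 832. The 34 genes then split into 12 lower and 22 higher, compared with 26 and 8 as deposited. The share of lower genes was 35.3%, against 15.7% of all tested genes on that scale. On the TPM scale 2 of the 34 were at least 1.5-fold lower, near the 5.24% of all genes, and 10 were at least 1.5-fold higher, against 50.7% of all genes. At least 2-fold higher there was 1 of the 34 (*Pfkp*, 2.94%), against 20.7% of all genes, and 0 were at least 2-fold lower, against 3.21%. The lowest 10% then held 4 of the 34 (11.8%), near the 9.99% of all genes. A constant shift keeps ranks, so this count moved only because the rescaling comes before the pseudocount. It stayed at 9 (26.5%) with the libraries scaled to the same sum without small RNAs. With the libraries scaled to the same sum without small RNAs, *Bnip3*, *Hk2* and *Bnip3l*, 3 of the 34 (8.82%), were at least 2-fold lower, near the 6.96% of all genes. Relative to the median of all tested genes the median of the 34 was -0.39 as deposited and -0.33 on the TPM scale.

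Markers of several cell types differed between the libraries alongside these genes. The 4 Müller glia markers summed to 1109 FPKM in CTRL and 418 in IR12, with 3 of 4 at least 2-fold lower as deposited and 2 on the TPM scale. *Glul*, the most abundant, had 754 and 126, while *Vim* had 121 and 221. All 5 lens markers were at least 2-fold lower on both scales, with a sum of 1757 in CTRL and 203 in IR12, and *Cryaa*, the most abundant, at 1118 and 124. In bulk tissue, fewer cells of a type and less RNA per cell cannot be told apart. For the lens list, this includes how much lens tissue entered each sample, which was not measured. The 10 leukocyte markers summed to 21.8 in CTRL and 138 in IR12, led by *Lyz2* (9.73 and 76.9), with 9 of 10 higher and *S100a8* listed at 0 in CTRL. Bipolar markers, led by *Prkca*, summed to 196 and 133 and ganglion cell markers, led by *Nefl*, to 269 and 223. These sums were lower in IR12 as deposited, with ratios of 0.678 and 0.827, but higher on the TPM scale, with 1.06 and 1.30. Of the 5 ganglion cell markers 2 were higher as deposited, *Rbpms* with 5.69 and 7.46 and *Sncg* with 79.7 and 80.7. The endothelial list, with 4 of 5 markers in the table and *Tek* the most abundant, summed to 7.68 and 7.39, a ratio of 0.962 as deposited and 1.51 on the TPM scale, with 2 of the 4 higher as deposited. The pigment epithelium list, with *Rgr* the most abundant, summed to 29.1 and 30.7, but its members went both ways. *Rgr* had 13.7 in CTRL and 21.6 in IR12, while *Rpe65* had 11.1 and 4.88, and 3 of the 5 markers were lower. The blood list, with 4 of 7 markers in the table summed to 28.4 and 52.6, but 2 of the 4 were lower in IR12. *Hbb*, the most abundant, had 20.4 and 35.1, and *Hba-a2* had 6.77 and 17.1. *Hba-a1* had 0.859 and 0.168 and *Alas2* 0.334 and 0.196. The part of these cell types in the differences of the 34 genes was not tested.

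**Figure D1:**
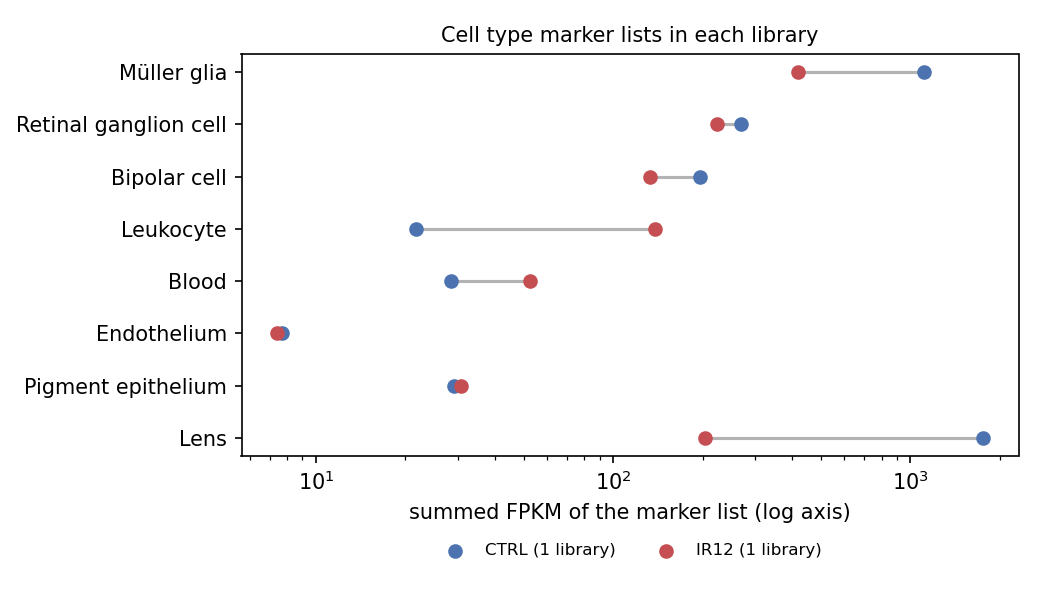
Summed FPKM on a log axis of 8 cell type marker lists in CTRL and IR12, 1 library each. The Müller glia (1109 and 418) and lens (1757 and 203) sums were lower in IR12, and the leukocyte sum (21.8 and 138) was higher.

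**Figure D2:**
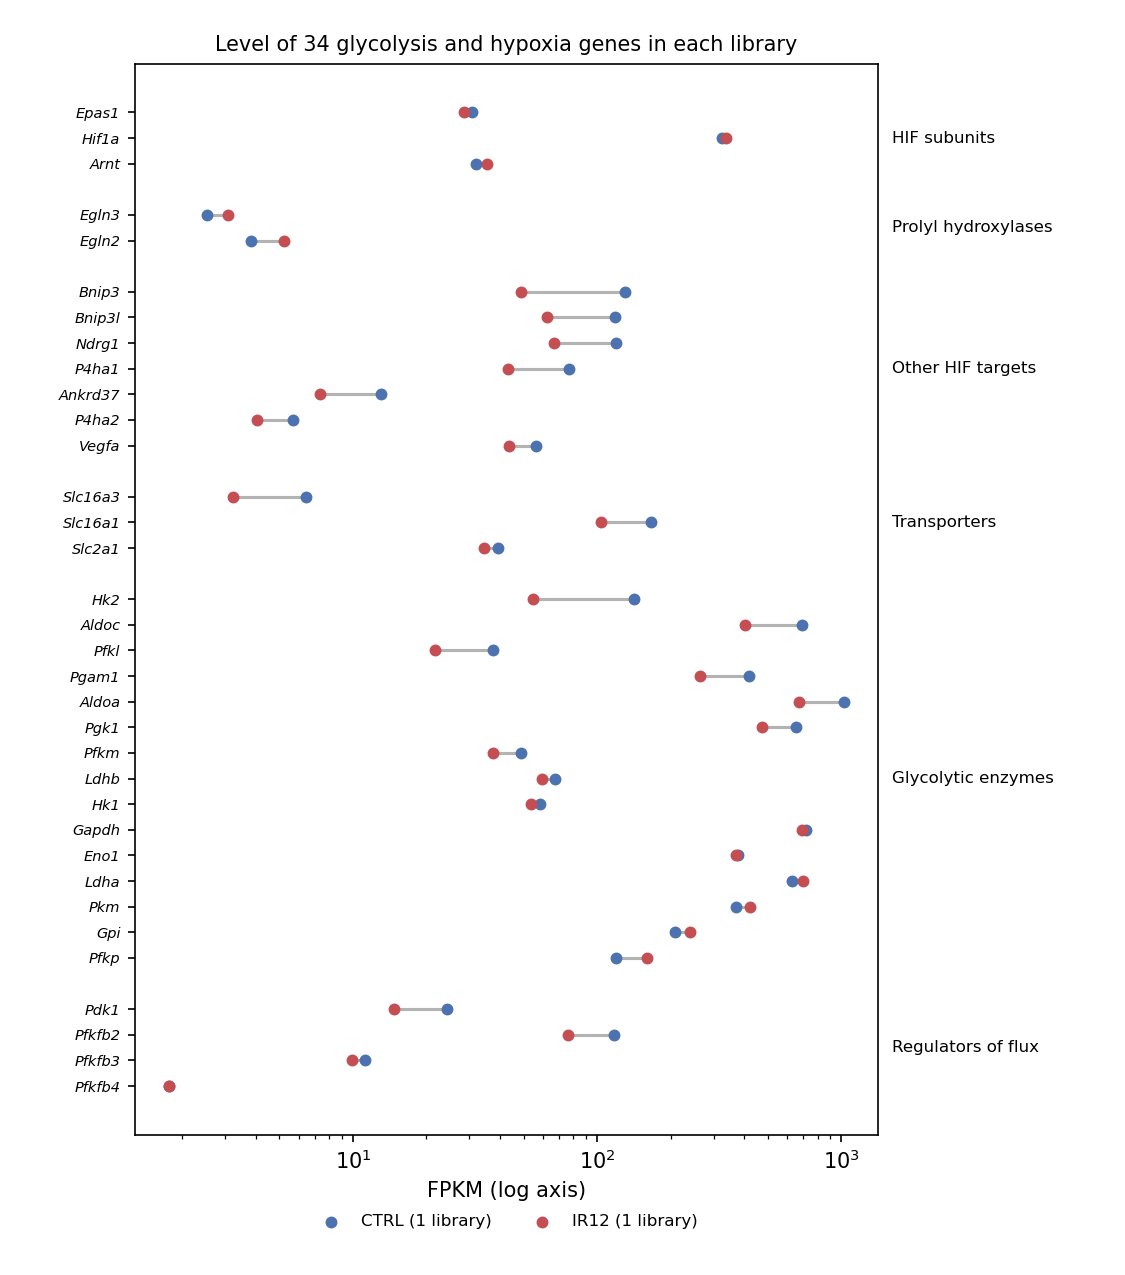
FPKM on a log axis of the 34 tested genes, grouped by role, with 1 point for CTRL and 1 for IR12. The longest lines between points are those of *Bnip3* (130.1 and 49.0) and *Hk2* (141 and 54.8), and the points of *Pfkfb4* (1.77 and 1.76) coincide.

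*Hif1a*, which encodes an oxygen-sensitive alpha subunit, had 325 FPKM in CTRL and 337 in IR12, with a log2 ratio of 0.05 as deposited, 0.70 on the TPM scale and -0.05 with the libraries scaled to the same sum without small RNAs. *Epas1*, which encodes HIF-2 alpha, had 30.8 in CTRL and 28.5 in IR12, with a log2 ratio of -0.11 that became 0.51 on the TPM scale. *Arnt*, the gene of their shared partner, had 32.0 and 35.5. The subunit levels thus lay close together in the libraries as deposited. *Hif1a* made up 91.3% of the summed FPKM of *Hif1a* and *Epas1* in CTRL and 92.2% in IR12, a share that no scaling of a library can change. Of the prolyl hydroxylase genes, *Egln2* had 3.82 in CTRL and 5.22 in IR12, and *Egln3*, a known HIF target itself, had 2.53 and 3.07. Both were higher in IR12 on every scale tried, by under 1.5-fold as deposited. Regulation of the HIF alpha subunits acts largely on the protein, which was not measured here.

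Among the 9 other HIF targets listed, 7 passed the minimum. All 7 were lower in IR12 as deposited, against 48.2% of all tested genes, with a median log2 ratio of -0.81. The 9 are a selection, and the further pathway genes given below went both ways, 33 higher and 37 lower as deposited. *P4ha2* and *Vegfa* turned higher on the TPM scale, where 5 of 7 (71.4%) were lower, against 15.7% of all genes, and the median of the 7 was -0.18 and that of all tested genes 0.59. *Bnip3* and *Bnip3l*, which encode mitophagy receptors of the outer mitochondrial membrane, had similar levels in CTRL. *Bnip3* (ENSRNOG00000017243, rn6 chr1:211248098-211265282) had 130.1 FPKM in CTRL and 49.0 in IR12. Its log2 ratio of -1.39, at the 3.63rd percentile of all tested genes, was -0.75 on the TPM scale and so not past 2-fold there. *Bnip3l* had 118 in CTRL and 62.4 in IR12, with a log2 ratio of -0.91. The share of *Bnip3* in their summed FPKM was 52.4% in CTRL and 44.0% in IR12.

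*Ndrg1*, a stress-responsive gene, had 119 FPKM in CTRL and 66.9 in IR12, with a log2 ratio of -0.82. *P4ha1*, a catalytic subunit of the hydroxylase that matures collagen, had 76.8 and 43.3, a log2 ratio of -0.81. *Ankrd37*, an ankyrin repeat gene, had 13.0 and 7.32, a log2 ratio of -0.75. All 3 genes stayed lower on the TPM scale, but by less, at -0.18 for *Ndrg1*, -0.18 for *P4ha1* and -0.16 for *Ankrd37*. *P4ha2*, the second catalytic subunit, had 5.66 in CTRL and 4.03 in IR12. *Vegfa*, the angiogenic growth factor, had 56.0 in CTRL and 43.5 in IR12, with a log2 ratio of -0.36 that became 0.28 on the TPM scale. *Adm* and *Car9*, which encode adrenomedullin and a cell surface carbonic anhydrase, were under 0.2 FPKM in both libraries and are not compared.

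Promoter windows of RefSeq on GRCr8, from 250 bases before to 50 after each gene's start, were available for 37 of the 41 genes and not for *Bnip3l*, *Ndrg1*, *Slc2a3* and *Pgk1*. The core of the hypoxia response element was searched as ACGTG and GCGTG on both strands, so that a palindromic CACGTG counts as 2 overlapping matches. A match was found for 26 of the 37 genes (70.3%), against 44.6% of all 27457 genes with a window and 41.6% of the 33469 windows. Both cores contain CG, and this background was not matched for GC content or expression. Genes at least 1.5-fold lower in IR12 as deposited had a match in 9 of 12 cases, and the other tested genes in 13 of 19. At least 2 matches were found in 8 of 12 (66.7%) and 8 of 19 (42.1%), against 21.1% of all genes with a window. The median number of matches was 2.5 and 1.0, and the difference was not tested. The 250 bases before the start are shown for the genes past 2-fold and for those with at least 5 matches in the window, with matches in capitals. They come from *Bnip3* (chr1:203154963-203155212, minus strand), *Ankrd37* (chr16:53001257-53001506, plus strand), *P4ha2* (chr10:38743644-38743893, plus strand), *Ldha* (chr1:106507842-106508091, plus strand) and *Hk2* (chr4:116841276-116841525, minus strand).
Bnip3: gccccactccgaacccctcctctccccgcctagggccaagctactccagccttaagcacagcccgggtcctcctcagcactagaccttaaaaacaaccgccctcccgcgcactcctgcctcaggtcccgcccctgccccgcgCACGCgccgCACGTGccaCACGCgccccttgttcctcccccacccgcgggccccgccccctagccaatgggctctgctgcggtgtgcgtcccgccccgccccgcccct
Ankrd37: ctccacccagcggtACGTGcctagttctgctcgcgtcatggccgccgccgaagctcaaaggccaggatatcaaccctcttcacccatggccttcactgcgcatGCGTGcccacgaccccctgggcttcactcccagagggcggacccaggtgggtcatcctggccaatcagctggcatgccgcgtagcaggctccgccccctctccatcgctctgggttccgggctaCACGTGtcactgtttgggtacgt
P4ha2: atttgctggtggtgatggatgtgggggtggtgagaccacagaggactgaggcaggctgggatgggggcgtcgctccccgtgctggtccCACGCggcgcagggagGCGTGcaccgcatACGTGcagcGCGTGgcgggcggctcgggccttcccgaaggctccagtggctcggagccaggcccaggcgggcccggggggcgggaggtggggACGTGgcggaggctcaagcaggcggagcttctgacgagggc
Ldha: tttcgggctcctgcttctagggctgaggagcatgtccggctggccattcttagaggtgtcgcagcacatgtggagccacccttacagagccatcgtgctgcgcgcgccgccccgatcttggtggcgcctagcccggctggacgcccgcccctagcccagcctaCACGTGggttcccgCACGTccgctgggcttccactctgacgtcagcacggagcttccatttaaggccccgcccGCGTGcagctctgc
Hk2: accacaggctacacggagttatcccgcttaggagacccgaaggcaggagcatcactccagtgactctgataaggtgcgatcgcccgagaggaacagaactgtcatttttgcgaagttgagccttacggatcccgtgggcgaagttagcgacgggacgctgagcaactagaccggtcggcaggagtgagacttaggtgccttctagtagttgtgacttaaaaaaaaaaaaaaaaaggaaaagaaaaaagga
The printed bases hold 4 matches for *Bnip3*, 4 for *Ankrd37*, 5 for *P4ha2*, 4 for *Ldha* and 0 for *Hk2*. Their GC content was 72.4% for *Bnip3*, 64.4% for *Ankrd37*, 72.4% for *P4ha2*, 66.4% for *Ldha* and 49.6% for *Hk2*. The full window of *Ldha* holds 6 matches, and its log2 ratio was 0.15 as deposited. Sites outside the windows were not searched, and a link between matches and the differences was not tested. A match describes letters only, and binding was not measured.

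Of the transporters, 3 of 4 passed the minimum, and 3 of 3 were lower in IR12 as deposited, against 48.2% of all tested genes, with a median log2 ratio of -0.66. On the TPM scale 2 of the 3 were lower, against 15.7% of all genes, and the median was -0.02. *Slc16a1*, which encodes the lactate and pyruvate carrier MCT1, had 166 FPKM in CTRL and 104 in IR12, with a log2 ratio of -0.66 that was -0.02 on the TPM scale. *Slc16a3*, which encodes the lactate exporter MCT4, had 6.44 and 3.24, a log2 ratio of -0.81. *Slc16a1* held 96.3% of their summed FPKM in CTRL and 97.0% in IR12. *Slc2a1*, the gene of the glucose transporter GLUT1, had 39.4 in CTRL and 34.3 in IR12. Its log2 ratio of -0.19 was 0.44 on the TPM scale.

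**Figure D3:**
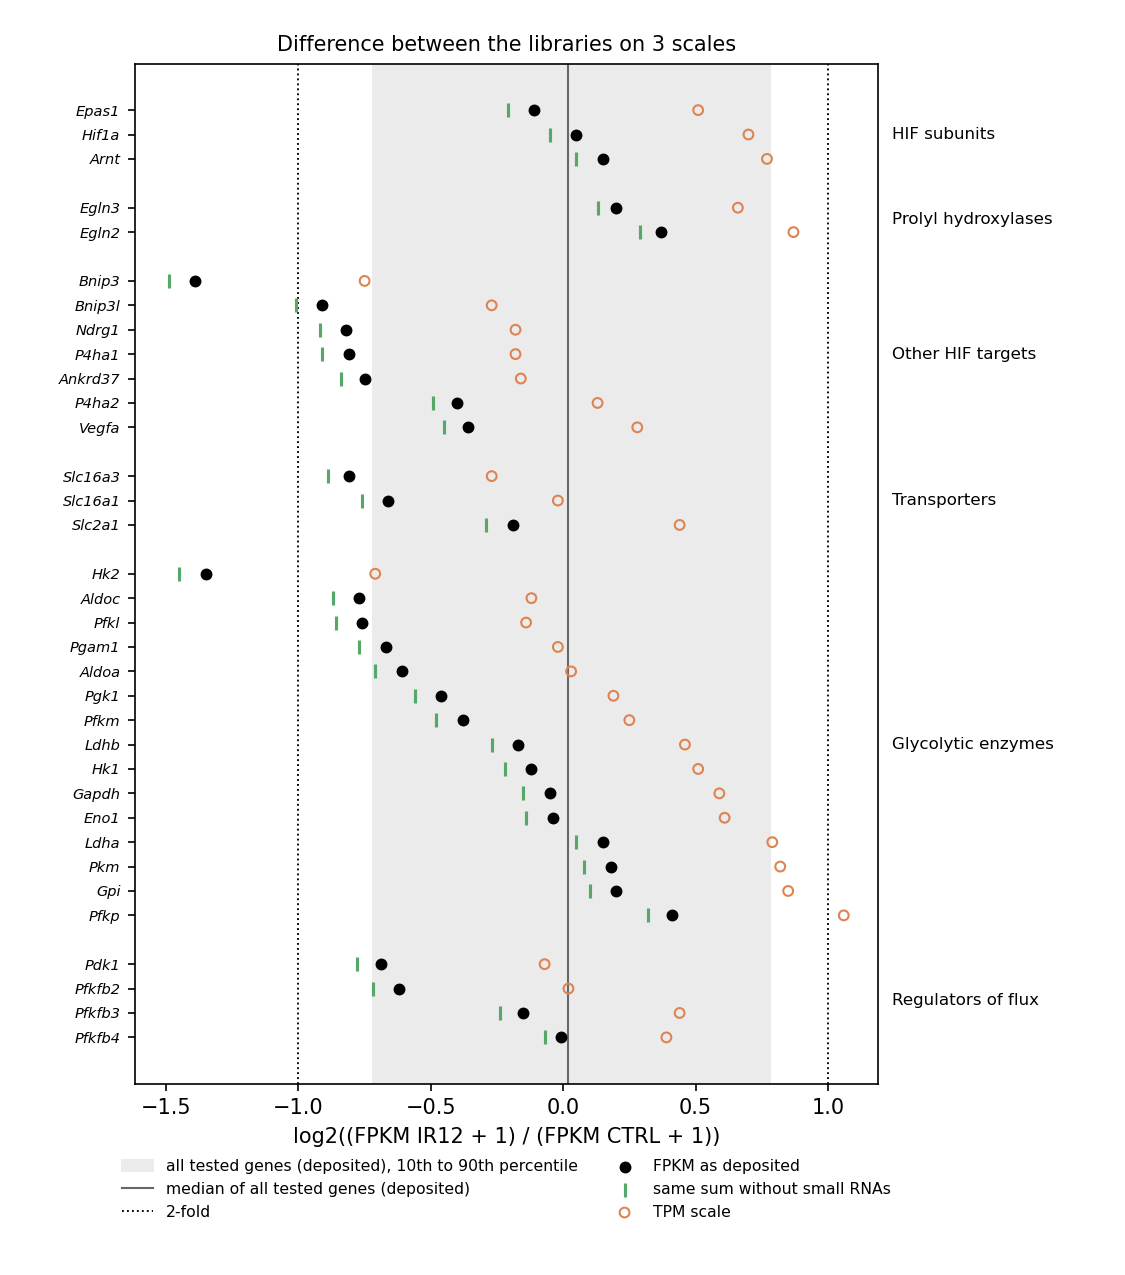
Log2 ratio of (FPKM + 1), IR12 over CTRL, of the 34 genes on 3 scales, with the 10th to 90th percentile of all tested genes as deposited (-0.72 to 0.78) shaded and 2-fold dotted. As deposited, *Bnip3* and *Hk2* lie past 2-fold, and on the TPM scale every gene lies further right and *Pfkp* (1.06) is the gene past 2-fold.

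The log2 ratios of the glycolytic enzymes ran from -1.35 to 0.41 as deposited. Of 18 enzymes 15 passed the minimum, with 11 lower and 4 higher in IR12 and a median log2 ratio of -0.17 as deposited, but 4 lower and 11 higher with a median of 0.46 on the TPM scale. The share of higher enzymes was 26.7% as deposited, against 51.8% of all tested genes, and 73.3% on the TPM scale, against 84.3%. Their summed FPKM was 5563 in CTRL and 4616 in IR12, a ratio of 0.830 as deposited and 1.30 on the TPM scale. This sum was 1.24% of the FPKM of all genes other than small RNAs in CTRL and 0.960% in IR12. *Hk2* (ENSRNOG00000006116, rn6 chr4:113559427-113610243), a hexokinase that binds mitochondria and traps glucose in the cell, had 141 FPKM in CTRL and 54.8 in IR12. Its log2 ratio of -1.35, at the 3.79th percentile of all tested genes, was -0.71 on the TPM scale. *Hk1*, the widely expressed hexokinase, had 58.5 in CTRL and 53.6 in IR12. *Hk2* therefore held 70.7% of the summed hexokinase FPKM in CTRL and 50.4% in IR12, and *Hk1* 29.3% and 49.2%.

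Phosphofructokinase catalyses the committed step, and its isozymes parted in direction as deposited. *Pfkp*, the platelet type, had 119.5 FPKM in CTRL and 159.6 in IR12, with a log2 ratio of 0.41. This was the highest of the 34 with the pseudocount of 1, but with a pseudocount of 0.1 *Pfkp* was at 0.42 and *Egln2* at 0.44. *Pfkl*, the liver type, had 37.6 and 21.7, a log2 ratio of -0.76. *Pfkm*, the muscle type, had 48.9 and 37.3, a log2 ratio of -0.38 that became 0.25 on the TPM scale. The family sum was 206 in CTRL and 219 in IR12, while the share of *Pfkp* was 58.0% in CTRL and 73.0% in IR12. The share of *Pfkl* was 18.2% and 9.94%.

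**Figure D4:**
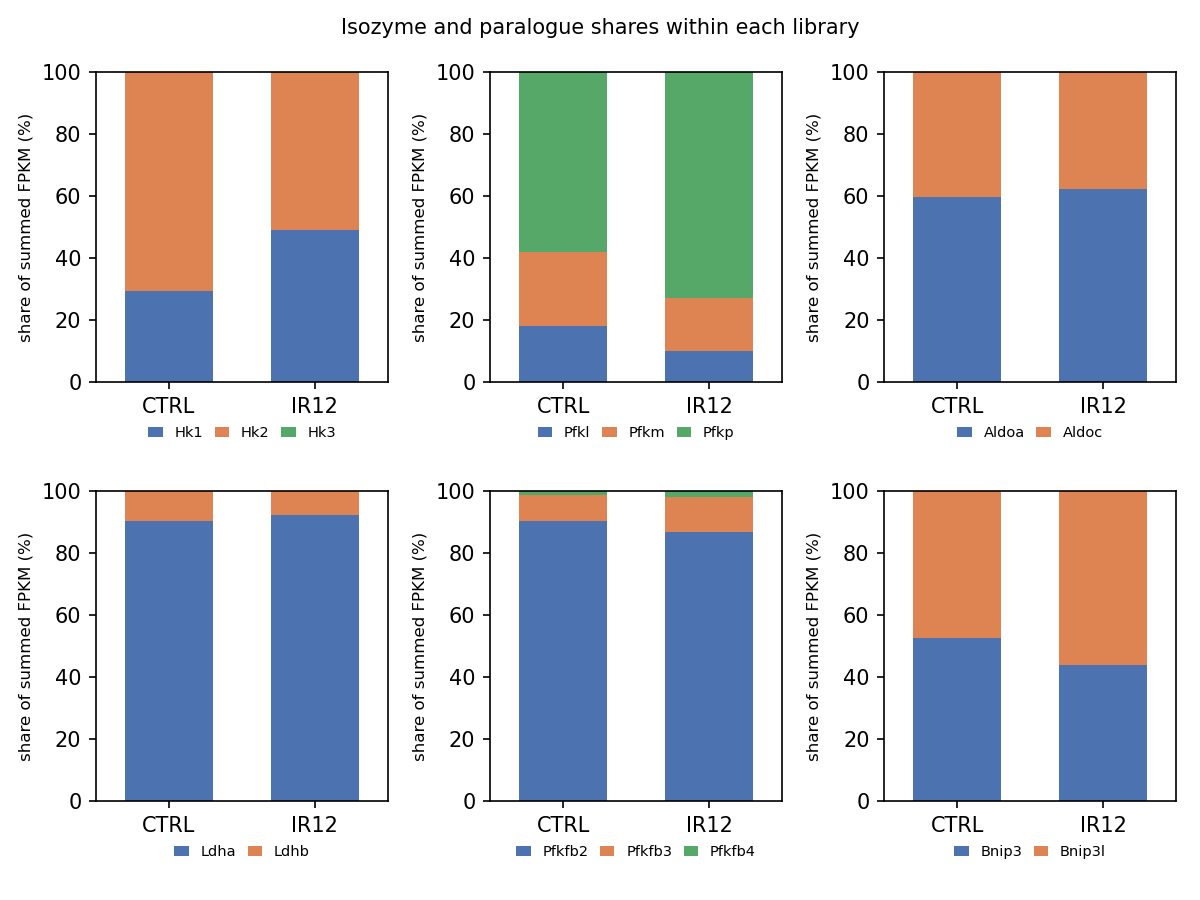
Share in percent of the summed FPKM of each isozyme or paralogue family, within CTRL and within IR12. Among the families drawn, the hexokinases (*Hk2* 70.7% and 50.4%) and phosphofructokinases (*Pfkp* 58.0% and 73.0%) differ most between the libraries.

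The aldolases split fructose bisphosphate. *Aldoa*, the most abundant of the 34 tested genes in CTRL, had 1024 FPKM there and 669 in IR12. Its log2 ratio of -0.61 became 0.03 on the TPM scale. *Aldoc*, the brain type, had 689 in CTRL and 405 in IR12, with a log2 ratio of -0.77. Both were lower in IR12 as deposited, and the share of *Aldoa* was 59.8% in CTRL and 62.3% in IR12. *Pgk1*, phosphoglycerate kinase, had 652 and 474, a log2 ratio of -0.46 that became 0.19 on the TPM scale. *Pgam1*, phosphoglycerate mutase, had 419.8 and 264, a log2 ratio of -0.67. *Gapdh*, glyceraldehyde phosphate dehydrogenase, had 716 and 690.1, a log2 ratio of -0.05 that became 0.59 on the TPM scale.

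*Eno1*, an enolase, had 379 FPKM in CTRL and 369 in IR12. *Gpi*, glucose phosphate isomerase, had 209 and 241, a log2 ratio of 0.20. *Pkm*, pyruvate kinase, had 372 and 421, a log2 ratio of 0.18. *Gpi* and *Pkm* were higher in IR12 on every scale tried. *Ldha*, the lactate dehydrogenase subunit that favours lactate formation, had 629 in CTRL and 696 in IR12, with a log2 ratio of 0.15. *Ldhb*, the subunit that favours pyruvate, had 67.3 and 59.6, a log2 ratio of -0.17 that became 0.46 on the TPM scale. *Ldha* held 90.3% of the family sum in CTRL and 92.1% in IR12. By level among the 34 tested genes, *Aldoa*, *Gapdh* and *Aldoc* led in CTRL. In IR12 *Ldha*, *Gapdh* and *Aldoa* led, and these 3 lay between 669 and 696 FPKM.

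**Figure D5:**
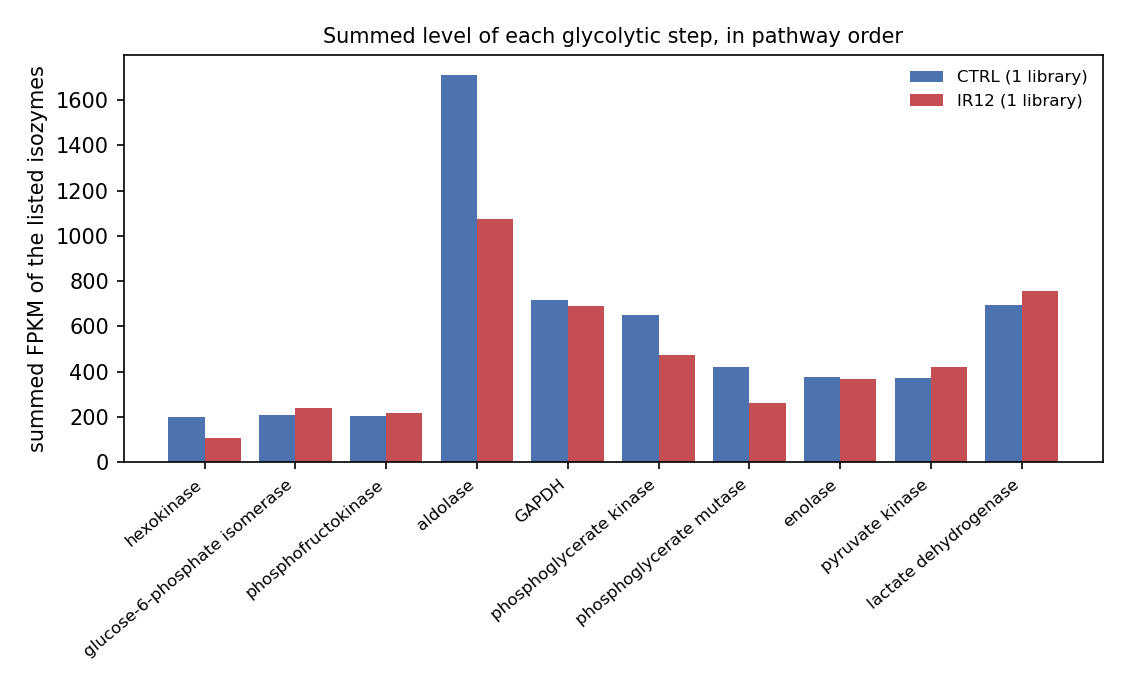
Summed FPKM of the listed isozymes of each glycolytic step in CTRL and IR12, 1 library each, in pathway order and without the isomerase of *Tpi1*. Enolase is *Eno1* alone, because *Eno2* is listed at 0 in both libraries. As deposited, hexokinase (199 and 109), aldolase (1713 and 1074) and phosphoglycerate mutase (419.8 and 264) were lower in IR12, and lactate dehydrogenase (696 and 755) was higher. On the TPM scale the ratios of the 3 lower steps were 0.855, 0.982 and 0.986, and lactate dehydrogenase stayed higher.

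Summed by step, 6 of the 10 steps were lower in IR12 as deposited. The ratio of IR12 over CTRL was 0.546 for hexokinase, 0.627 for aldolase, 0.629 for phosphoglycerate mutase and 0.726 for phosphoglycerate kinase. It was 0.964 for *Gapdh* and 0.973 for enolase, which is *Eno1* alone because *Eno2* is listed at 0 in both libraries. The steps with a higher sum were glucose phosphate isomerase at 1.15, pyruvate kinase at 1.13, lactate dehydrogenase at 1.09 and phosphofructokinase at 1.06. On the TPM scale the ratio was 0.855 for hexokinase, while aldolase (0.982) and the mutase (0.986) lay near 1. The other 7 steps were then higher, from 1.14 for phosphoglycerate kinase to 1.80 for the isomerase. Relative to *Gapdh*, which removes the scaling of the library, hexokinase was at 0.566 and aldolase at 0.650, and lactate dehydrogenase at 1.13.

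The regulators of flux were lower in IR12 as deposited in 4 of 4 cases, against 48.2% of all tested genes, with a median log2 ratio of -0.39. One of the 4, *Pfkfb4*, was at -0.01. On the TPM scale 3 of the 4 (75.0%) were higher, against 84.3% of all genes, and *Pdk1* was at -0.07. *Pdk1*, the kinase that shuts pyruvate dehydrogenase, had 24.2 FPKM in CTRL and 14.7 in IR12, with a log2 ratio of -0.69. *Pfkfb2*, which sets the level of the main activator of phosphofructokinase, had 117 and 75.7, a log2 ratio of -0.62. *Pfkfb3* and *Pfkfb4*, of the same family, had 11.2 and 1.77 in CTRL and 9.95 and 1.76 in IR12. *Pfkfb2* held 90.1% of the family sum in CTRL and 86.6% in IR12.

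The median of the listed other HIF targets lay 0.64 below that of the listed glycolytic enzymes on the log2 scale (-0.64). Rescaling or centring a library shifts both medians alike, so this difference cannot show whether the scaling matters. Many of the enzymes are HIF targets too, so the groups differ by function and not by regulator. Of 97 further genes of the pathway, 90 were in the table and 70 passed the minimum, 33 higher and 37 lower in IR12 as deposited, and 63 and 7 on the TPM scale. The share of higher genes as deposited was 47.1%, against 51.8% of all tested genes, and the 63 of 70 on the TPM scale stand against 84.3%. At least 2-fold higher as deposited were 4 of the 70 (5.71%), near the 6.56% of all genes, and 1 (1.43%) was lower, against 6.12%. The genes past 2-fold are given as levels. *Hmox1*, heme oxygenase, had 0.714 FPKM in CTRL and 84.0 in IR12, passing the minimum in IR12 alone. *Angptl4*, a secreted regulator of lipoprotein lipase, had 1.42 and 9.45, a log2 ratio of 2.11. *Flt1*, a VEGF receptor, had 12.3 and 32.3, a log2 ratio of 1.32. *Tfrc*, the transferrin receptor, had 106 and 52.1, a log2 ratio of -1.01 that was -0.37 on the TPM scale.

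The remaining 7 genes gave no comparison. *Egln1* was not found under its symbol. *Hk3*, *Adm* and *Car9* were under 1 FPKM in both libraries, and *Slc2a3* and *Eno2* were listed at 0 in both. *Tpi1*, an enzyme that every glycolytic cell uses, was listed at 0.0523 FPKM in CTRL and 0 in IR12. All 7 genes listed between *Ptpn6* and *Usp5* on rn6 chromosome 4, *Eno2* and *Tpi1* among them, had at most 0.0523 FPKM, while *Usp5* had 16.4 and 26.0. The 37 mitochondrial genes are also all listed at 0, so a 0 in the table is not evidence of absent expression. Among the tested genes, *Egln2* shares its listed locus with *Cyp2t1*, and *P4ha1* shares its own with *U7*. *Gapdh*, *Aldoa*, *Ldha*, *Pgam1* and *Eno1* have near-identical pseudogene copies, so their FPKM may depend on how shared reads were assigned. This was not tested.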

How the data were processed

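Retinal RNA of 2 libraries was sequenced after rRNA depletion. The labels name a stranded total RNA kit and the series text a stranded mRNA kit. The authors deposited FPKM per gene, 1 column per library, and the submitters' processing notes name STAR 2.5.2b, Cuffdiff 2.2.0 and rn6. Start positions, counted from 0 in the table, are given here from 1. Genes were matched by symbol, and none of the 41 had several rows. Log2 ratios used a pseudocount of 1 FPKM, and genes with at least 1 FPKM in either library were tested, each table row as a gene. A gene was called when past 2-fold. The members and lists were chosen with earlier results of these data known. All 41 genes are named, and of the further pathway genes those past 2-fold, except 1 that is not reported here. The rod marker sum is not reported here either. The summed steps on each scale, the rank limit, the 1.5-fold limit on other scales and the choice of printed promoters were set after the values were seen. Small RNAs were recognised by symbol. Alternatives were other pseudocounts, minimums, limits and scalings. Python 3.11.15, numpy 2.4.6, pandas 2.3.3 and matplotlib 3.10.9 were used.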

Additional observations from a re-analysis of the deposited data

How the results depend on the processing

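Each condition has 1 library, so none could be left out. No result comes from a test, so no pairing of the libraries was used. A median counted as moved when it shifted by over 1.5-fold, a share by over 1 percentage point and a count by over 1.5 times. A single gene counted as moved when it crossed 2-fold, changed sign or shifted by over 1.5-fold, and a step when it shifted by over 1.5-fold. Of 89 alternative values of the counts, medians and shares, 80 did not move. All others that moved did so on the TPM scale or under the 1.5-fold limit. Of 156 alternative values of single genes and steps, 113 did not move, and neither *Bnip3* nor *Hk2* changed sign. On the TPM scale genes at least 2-fold lower became 0, against 3.21% of all tested genes, and genes at least 2-fold higher 1 (*Pfkp*), against 20.7%. Genes at least 1.5-fold lower became 2, against 5.24%, and the lowest 10% held 4 (11.8%), near the 9.99% of all tested genes. The medians became -0.18 for other HIF targets, -0.02 for transporters, 0.46 for glycolytic enzymes and 0.20 for the regulators of flux, the last pair changing sign. The added 0.65 of that scale shifts the fold counts and medians by construction. A constant shift keeps ranks, so the count in the lowest 10% can move only because the rescaling comes before the pseudocount. The 1.5-fold limit gave 14 genes lower, by construction. Without small RNAs in the sum, 3 genes were at least 2-fold lower, with *Bnip3l* joining, against 6.96% of all tested genes. The rank, 1.5-fold and step results on other scales were chosen after seeing the data. FPKM gives no read counts per gene, so no counting error is given.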
